A study of Mus musculus with 24 samples.

Results

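The transforming growth factor-β (TGF-β) superfamily genes described here are 50 listed symbols among 55471 genes counted. They comprise 16 ligands, 12 receptors and co-receptors, 8 SMADs, 6 secreted antagonists, 4 latent TGF-β binding proteins and the 4 *Id* genes, and all 50 matched a gene. Of these, 44 passed the filter on low counts and were tested among 17522 genes in all. RNA-seq libraries came from 24 samples of 3T3 mouse embryonic fibroblasts (MEFs), an immortalised fibroblast culture, with 3 libraries in each of 8 groups. WT MEFs, LKB1 knockout (KO) MEFs and the LKB1/CRTC2 knockout clones A1 and A2 were each profiled untreated and after 6 hours with the inflammatory cytokine IL-1β at 0.1 ng/mL. The KO line and both clones carry the LKB1 (*Stk11*) knockout, and the clones were made from KO cells with CRISPR guides against *Crtc2*, each grown from one edited cell. Because WT and KO are separate lines and each clone descends from its own cell, genotype, line and clone cannot be told apart. The labels do not say whether the 3 libraries of a group are separate cultures, so the p-values below measure the spread between these libraries, which may be technical.

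Superfamily ligands are secreted as dimers that bring type I and type II serine/threonine kinase receptors together. TGF-βs, activins and the growth and differentiation factor (GDF) GDF11 act mainly through SMAD2 and SMAD3, bone morphogenetic proteins (BMPs) and related GDFs such as GDF5 mainly through SMAD1, SMAD5 and SMAD9, and both branches share SMAD4, while SMAD6 and SMAD7 are inhibitory. In fibroblasts the TGF-β branch is known for matrix and contractile genes, and the *Id* genes are classic targets of the BMP branch. LKB1 activates salt-inducible kinases that keep CRTC2, a coactivator of the transcription factor CREB, out of the nucleus, and CREB binds the cAMP response element (CRE).

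Libraries held 38842901 to 48594394 counts on genes, with a median of 42431965, and levels are given in CPM, a gene's counts scaled to a common library size after correction by the trimmed mean of M values (TMM). *Stk11* averaged 86.0 ± 1.68 CPM (SD, n = 3) in untreated WT MEFs, and its group means in the other genotypes lay between 16.8 and 22.5 CPM. *Crtc2* averaged 81.1 ± 1.80 CPM in untreated KO, 42.9 ± 2.11 in A1 and 49.8 ± 0.86 in A2, and a count over the whole gene does not show whether the edited exon is intact. The study states that it checked the knockout in its edited clones by western blot. Of 10 fibroblast markers, 8 exceeded 1 CPM in at least 1 library and 7 in every library, and the sum over all 10 ran from 5716 to 9935 CPM. The defining markers *Thy1* and *Lum* stayed near 0 in every group, and *Pdgfra* averaged 4.58 CPM in untreated WT against 342 in untreated KO. Other listed markers differed in both directions between untreated KO and WT. *Col1a2* was lower in KO (log2 fold change -3.63 ± 0.30, SE) and *Dcn* higher (9.04 ± 0.46). Among epithelial, endothelial, leukocyte and skeletal muscle markers, only the leukocyte marker *Cd68* exceeded 1 CPM in every library. These marker levels differ between the WT and KO lines beside every KO to WT result below, and their part in those results was not tested. Library 1 stood apart in every group. Its counts differed from those of libraries 2 and 3 by a mean chi-square of 37.9 to 107 per gene, where libraries 2 and 3 differed by 7.46 to 18.8, and it had the highest share of read pairs not on genes in all 8 groups (29.9% to 34.4%, against 26.7% to 30.04% in the other libraries). Member counts are therefore also given without library 1 of every group, a fit chosen after seeing the data that leaves 16 libraries, and the part of library 1 in each result was not otherwise tested. In such bulk libraries, fewer expressing cells and less RNA per cell cannot be told apart.

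RefSeq promoter windows (GRCm38.p6, 250 bases before to 50 after each start) were read for CRE and SMAD motifs because CRTC2 acts through CREB, and they were found for 36 of the 50 genes. The letters searched, on both strands, were the full CRE TGACGTCA, its core TGACG and the SMAD box CAGAC. The full CRE was in 1.79% of 32851 windows of all genes and in 1 of 44 member windows, that of *Ltbp1*. The core, which the full CRE contains, was in 20.8% of all windows and in 10 of 44 member windows (22.7%). The SMAD box was in 49.6% of all windows and in 22 of the 44 (50%). Both shares for the members lay within a few percentage points of those for all genes, so the windows as a group did not stand apart. The stretches below come from the members that meet the rule for per-library values and whose window holds a core before the start site. *Grem1* and *Fstl3*, which hold a SMAD box without a core and differed most between KO and WT, are shown too. They run 5′ to 3′ on the gene's strand, and capitals mark the core or the SMAD box on either strand.
Ltbp1 (chr17:75005441-75005484, + strand): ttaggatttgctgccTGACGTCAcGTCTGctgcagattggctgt
Id3 (chr4:136143637-136143773, + strand): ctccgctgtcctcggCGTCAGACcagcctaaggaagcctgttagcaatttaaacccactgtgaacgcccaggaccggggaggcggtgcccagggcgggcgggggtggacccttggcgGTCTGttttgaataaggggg
Id4 (chr13:48260872-48260906, + strand): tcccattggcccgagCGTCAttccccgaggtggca
Gdf11 (chr10:128891905-128891939, - strand): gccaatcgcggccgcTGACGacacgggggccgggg
Nbl1 (chr4:139093007-139093041, - strand): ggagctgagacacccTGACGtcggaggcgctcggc
Grem1 (chr2:113758848-113758882, - strand): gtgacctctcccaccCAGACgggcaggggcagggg
Fstl3 (chr10:79777098-79777273, + strand): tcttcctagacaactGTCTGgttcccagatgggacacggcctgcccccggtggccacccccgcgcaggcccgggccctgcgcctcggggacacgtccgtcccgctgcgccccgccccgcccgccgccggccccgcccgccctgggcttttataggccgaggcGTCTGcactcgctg
In *Ltbp1* the full CRE started 73 bases before the start site and is read on both strands as overlapping cores. In *Id3* a core on the opposite strand and a SMAD box overlap in one run of capitals. The windows of *Inhba*, *Inhbb*, *Bmp4*, *Smad6* and *Id2* held none of these letters, and a match or its lack is a description of the window only.

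The comparison of KO with WT asks which parts of the chain differ when LKB1 is missing. In untreated MEFs, 22 of the 44 tested genes were higher in KO and 14 lower (edgeR quasi-likelihood test, Benjamini-Hochberg false discovery rate, FDR, under 0.05 over all genes tested), against 30.1% of all tested genes higher and 25.8% lower. After IL-1β, 22 were higher and 13 lower, against backgrounds of 30.2% and 27.1%. Without library 1 of every group the counts were 23 and 16 untreated (31.9% and 27.3% of all genes) and 23 and 13 with IL-1β (31.7% and 28.6%), and no call was lost. The median log2 fold change of the tested members was 0.47 untreated, also with *Gdf5* set to its lower bound, where the median over all tested genes was 0.04. The balance over all genes turned with the way reads were counted: with both strands counted, 4703 of 19251 genes were higher and 5117 lower untreated (median -0.02) and 4830 and 5169 with IL-1β (median -0.01), while 22 members were higher and 16 lower untreated and 22 and 15 with IL-1β. The activin subunit *Inhba*, the BMP antagonist *Grem1*, the ligand *Gdf5* and the targets *Id2* and *Id3* were higher in KO, and the antagonists *Fstl3* and *Nog* were lower. Between the treatments, 20 members were called higher in both, 12 lower in both, 4 untreated only (*Bmp2*, *Eng*, *Fst* and *Id1*) and 3 with IL-1β only (*Bmp6*, *Smad4* and *Ltbp2*). Over all tested genes these outcomes took 26.6%, 23.3%, 6.02% and 7.46%. *Tgfb1*, *Inha*, *Gdf11*, *Smad6* and *Smad7* were called in neither. With the replicate number as a block, which pairs the IL-1β libraries, 25 members were higher and 16 lower with IL-1β, against 34.4% and 31.5% of all tested genes in the same fit. That fit also called *Bmp2* (1.44), *Id1* (0.36) and *Smad7* (0.17) higher and *Eng* (-0.48), *Smad6* (-0.29) and *Tgfb1* (-0.12) lower.

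**Figure D1:**
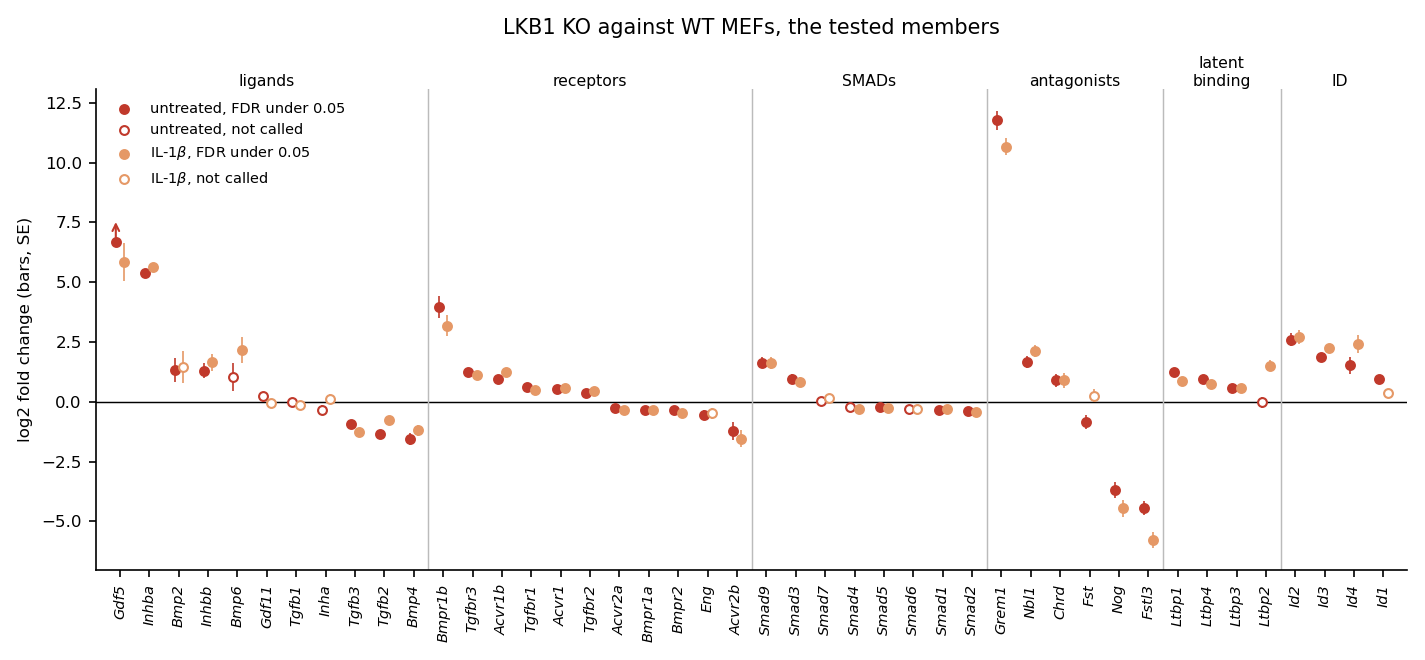
Log2 fold change of KO over WT (y axis, bars show SE) for the 44 tested genes grouped by role, untreated (red) and with IL-1β (orange), filled where the FDR was under 0.05. *Grem1* lies highest, *Fstl3* and *Nog* lowest, and the arrow marks *Gdf5*, whose untreated value is a lower bound.

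*Inhba* (ENSMUSG00000041324.14, chr13:16011851-16031621, GRCm38) encodes the βA subunit of activin A. It was counted at 2.59, 2.28 and 1.96 CPM in the untreated WT libraries and at 111, 87.1 and 87.8 CPM in untreated KO. Every KO library stood far above every WT library, and the log2 fold change was 5.38 ± 0.15 (SE; edgeR FDR = 4.24e-17). With IL-1β the log2 fold change was 5.62 ± 0.15 (edgeR FDR = 3.55e-17). *Gdf5* (chr2:155941023-155945367), a ligand of joint and cartilage development, had no count in the 3 untreated WT libraries and 4.71, 7.31 and 10.1 CPM in untreated KO. Taken against a floor of 3 counts per library, *Gdf5* was at least 103-fold higher in KO, and intervals from such counts cover counting error only. *Inhbb*, the activin βB subunit, ran from 2.16 to 3.82 CPM in untreated WT and from 5.41 to 8.95 in untreated KO, without overlap (log2 fold change 1.31 ± 0.32).

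Other ligands went the opposite way. *Bmp4*, a BMP of mesoderm and limb, had 12.0, 16.2 and 13.6 CPM in untreated WT and 4.05, 5.24 and 4.83 CPM in untreated KO, a fall of the group mean to 0.338 of WT (log2 fold change -1.56 ± 0.24, edgeR FDR = 1.18e-05). *Tgfb2* and *Tgfb3*, the less abundant TGF-β isoforms, were lower in KO by log2 values of -1.34 ± 0.16 and -0.94 ± 0.14 untreated, and no KO library reached a WT library for either. *Tgfb1*, the main isoform in these cells, stood at 101 ± 9.31 CPM in untreated WT and 101 ± 9.95 in untreated KO, a log2 difference of -0.00 ± 0.12. *Bmp2* averaged 1.42 ± 0.45 CPM in untreated WT and 3.54 ± 1.82 in untreated KO with overlapping libraries. Its call (edgeR FDR = 0.0328) was lost without KO library 2 or 3 or WT library 1 or 3, at log2 values of 1.12, 0.99, 1.08 and 1.30. *Gdf11*, a close relative of myostatin, stayed between 36.3 and 47.3 CPM in the untreated WT and KO libraries. *Inha*, the inhibin α subunit, stayed between 1.36 and 1.92 CPM there. *Bmp6* was called higher in KO with IL-1β (2.16 ± 0.56) on 13 counts over the 3 WT libraries and 65 over the 3 KO libraries.

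Levels per kilobase of exon show how the ligand order shifted. In untreated WT, *Tgfb1* (20.1 ± 1.85 CPM per kb) and *Tgfb3* (16.2 ± 2.45) led, followed by *Gdf11* (9.40 ± 0.44) and *Bmp4* (6.19 ± 0.94). In untreated KO, *Tgfb1* (20.05 ± 1.97 CPM per kb) was followed by *Inhba* (14.9 ± 2.16), *Gdf11* (11.0 ± 0.71) and *Tgfb3* (8.45 ± 0.97). *Inhba* in WT stood at 0.36 CPM per kb. The ligand genes *Bmp3*, *Bmp5*, *Bmp7*, *Gdf6* and *Gdf10* had at most 18 counts in any library and were not tested.

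**Figure D2:**
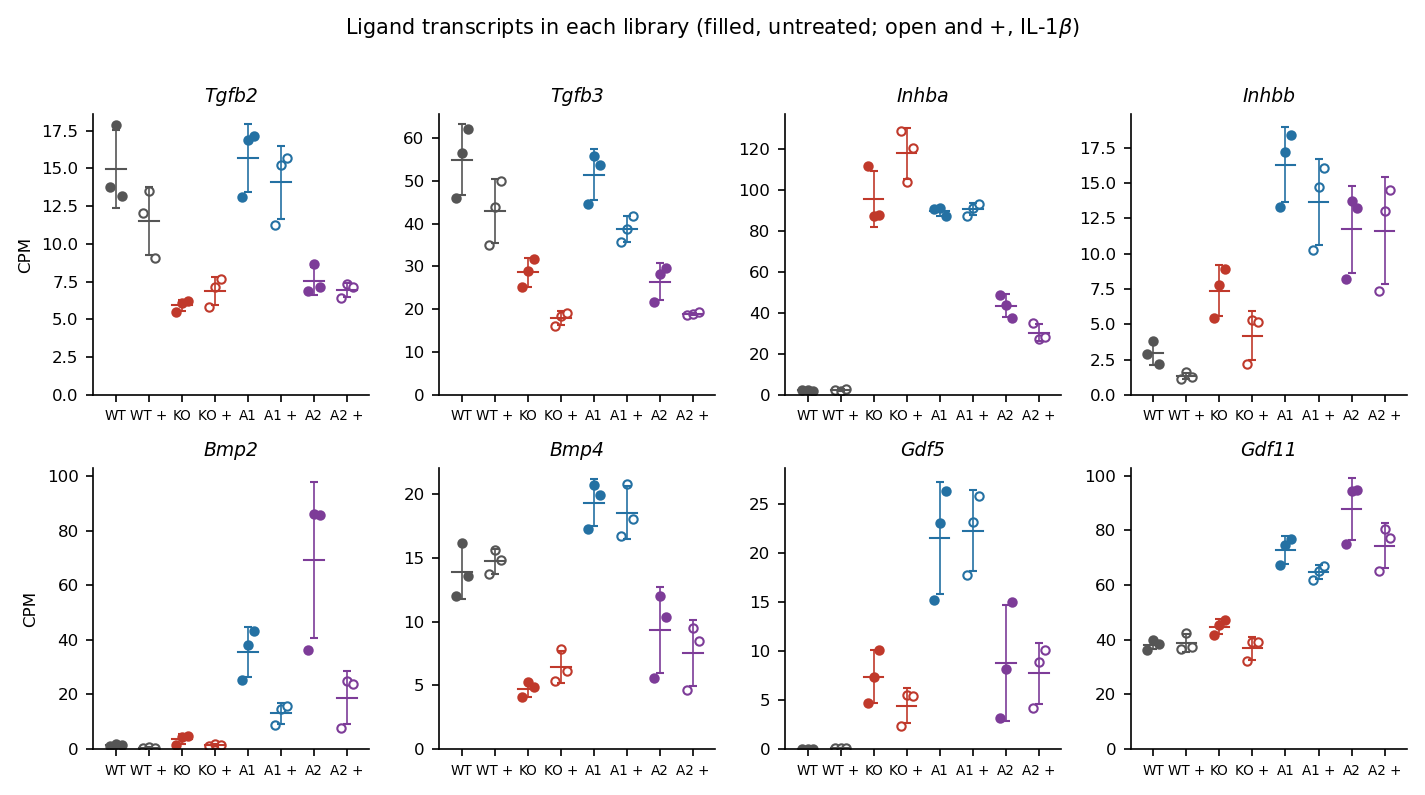
CPM (y axes, linear from 0) of 8 ligand genes in the 24 libraries by group (x axis, + marks IL-1β), with points for libraries, lines for group means and bars for SD (n = 3). *Inhba* is at most 2.66 CPM in the WT libraries and at least 27.3 CPM in the others, and *Bmp2* is highest in the untreated clones.

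Among receptors, KO MEFs had more of the TGF-β receptors and of several type I receptors and less of the activin type II receptors. *Tgfbr3*, the co-receptor betaglycan, had 73.0, 70.6 and 74.4 CPM in untreated WT and 155, 182 and 183 in untreated KO, without overlap (log2 fold change 1.25 ± 0.10, edgeR FDR = 7.46e-10). *Tgfbr1*, the type I TGF-β receptor, rose from 81.8 ± 0.825 to 124 ± 2.81 CPM (log2 fold change 0.60 ± 0.07). *Tgfbr2*, the type II TGF-β receptor, rose from 108 ± 4.73 to 140 ± 12.9 CPM (0.38 ± 0.13), a call lost without KO library 3 (0.27), without WT library 1 (0.34) or with both strands counted (0.31). *Acvr1b* and *Acvr1*, type I receptors of activins and BMPs, were higher in KO by 0.95 ± 0.11 and 0.55 ± 0.12. *Bmpr1b*, a type I receptor for BMPs and GDF5, lies outside the rule for per-library values and was chosen after its values were seen. It had 0.156, 0.115 and 0.0782 CPM in untreated WT and 1.86, 1.97 and 1.83 in untreated KO, so the groups were well apart but the WT libraries held only 15 counts in all (log2 fold change 3.97 ± 0.47).

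*Acvr2b*, an activin type II receptor, had 3.77, 3.15 and 2.79 CPM in untreated WT and 1.58, 1.07 and 1.52 in untreated KO (log2 fold change -1.22 ± 0.36, edgeR FDR = 0.00686). The lowest WT library lay above the highest KO library. *Acvr2a*, the other activin type II receptor, was lower by 0.24 on the log2 scale (SE 0.07), *Bmpr1a* by 0.34 (0.11) and *Bmpr2* by 0.36 (0.12), and no KO library reached a WT library for any of the 3. The call for *Bmpr2* was lost without WT library 2 (-0.30). *Eng*, the co-receptor endoglin, had a log2 difference of -0.55 ± 0.21 whose call was lost without KO library 1 (-0.48) or WT library 2 (-0.56) or 3 (-0.44), with no filter on low counts (-0.56), with upper quartile scaling (-0.47) or in a fit of the 2 groups alone (-0.54). *Acvrl1*, a type I receptor of endothelium, had at most 6 counts in a library and was not tested.

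Of the 8 SMADs, 2 were higher in untreated KO and 3 lower, where 30.1% of all tested genes were higher and 25.8% lower. *Smad9*, a BMP-branch SMAD, had 4.47, 4.26 and 3.31 CPM in untreated WT and 14.9, 13.0 and 9.33 in untreated KO, without overlap (log2 fold change 1.63 ± 0.23, edgeR FDR = 3.92e-06). *Smad3*, a TGF-β-branch SMAD, was higher in KO by 0.96 ± 0.21. The other SMADs that passed were lower: *Smad2* at -0.37 ± 0.09, *Smad1* at -0.33 ± 0.10 and *Smad5* at -0.23 ± 0.07. The common partner *Smad4* was at -0.21 ± 0.10 untreated and did not pass, and with IL-1β it was lower (-0.31 ± 0.10), where the call was lost without treated KO library 1 (-0.23). The inhibitory *Smad7* and *Smad6* were at 0.03 ± 0.08 and -0.30 ± 0.13 and did not pass.

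All 4 *Id* genes, which encode inhibitors of basic helix-loop-helix transcription factors, were higher in untreated KO, as were 30.1% of all tested genes. *Id2* (chr12:25093799-25097140) had 14.5, 10.1 and 9.62 CPM in untreated WT and 77.7, 73.8 and 56.9 in untreated KO (log2 fold change 2.60 ± 0.27, edgeR FDR = 5.24e-08). *Id3*, whose promoter stretch with a core and 2 SMAD boxes is printed above, had 29.9, 29.1 and 22.6 CPM in WT and 97.5, 107 and 96.6 in KO (1.88 ± 0.12, edgeR FDR = 3.12e-11). For both genes the lowest KO library was several times the highest WT library. *Id4*, at 0.287 to 0.460 CPM in WT and 0.833 to 1.20 in KO, was higher by 1.52 ± 0.35, and *Id1* by 0.94 ± 0.18. With IL-1β the value for *Id1* was 0.37 ± 0.18, not called, and it was called with the block (FDR = 0.00601), with no filter on low counts or in a fit of the 2 groups alone.

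The 6 secreted antagonists differed in both directions, 3 higher and 3 lower in untreated KO, against 30.1% and 25.8% of all tested genes. *Grem1* (ENSMUSG00000074934.3, chr2:113746164-113758646) encodes gremlin, which binds BMPs. It had 0.0447, 0.115 and 0 CPM in untreated WT, 7 counts over the 3 libraries, and 189, 223 and 195 CPM in untreated KO. Log2 fold changes were 11.76 ± 0.41 untreated and 10.66 ± 0.37 with IL-1β, and the size rests on those few WT counts. *Fstl3* (chr10:79777272-79782630), which binds activins, had 12.3, 14.4 and 13.3 CPM in untreated WT and 0.385, 0.626 and 0.833 in untreated KO. All KO libraries were below 1 CPM and the log2 fold change was -4.44 ± 0.30 (edgeR FDR = 4.63e-11). *Nog* (chr11:89300638-89302332), which encodes the BMP antagonist noggin, fell from 3.84, 5.25 and 3.23 CPM to 0.294, 0.418 and 0.238 (-3.69 ± 0.35, edgeR FDR = 9.97e-09), again without overlap. *Nbl1*, another BMP antagonist, rose from 2.48 to 4.10 CPM in WT to 9.53 to 11.5 in KO (1.66 ± 0.25). *Chrd*, which encodes chordin, was higher by 0.89 ± 0.28 at a level under 2 CPM, and its call was lost without KO library 2 (0.66) or WT library 3 (0.74). *Fst*, which encodes the activin-binding follistatin, was lower untreated by 0.85 on the log2 scale (SE 0.28), a call lost without KO library 3 (-0.76) or WT library 1 (-0.71), and was at 0.24 ± 0.27 with IL-1β.

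Latent TGF-β binding proteins such as LTBP1 tether TGF-β in the matrix. *Ltbp1*, whose promoter window holds the full CRE printed above, had 94.9, 94.8 and 117 CPM in untreated WT and 262, 233 and 227 in untreated KO, without overlap (log2 fold change 1.23 ± 0.15, edgeR FDR = 4.11e-07). *Ltbp4* and *Ltbp3* were higher by 0.94 ± 0.08 and 0.56 ± 0.15. *Ltbp2* did not differ detectably untreated (-0.02 ± 0.23) and was higher in KO with IL-1β (1.51 ± 0.22).

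**Figure D3:**
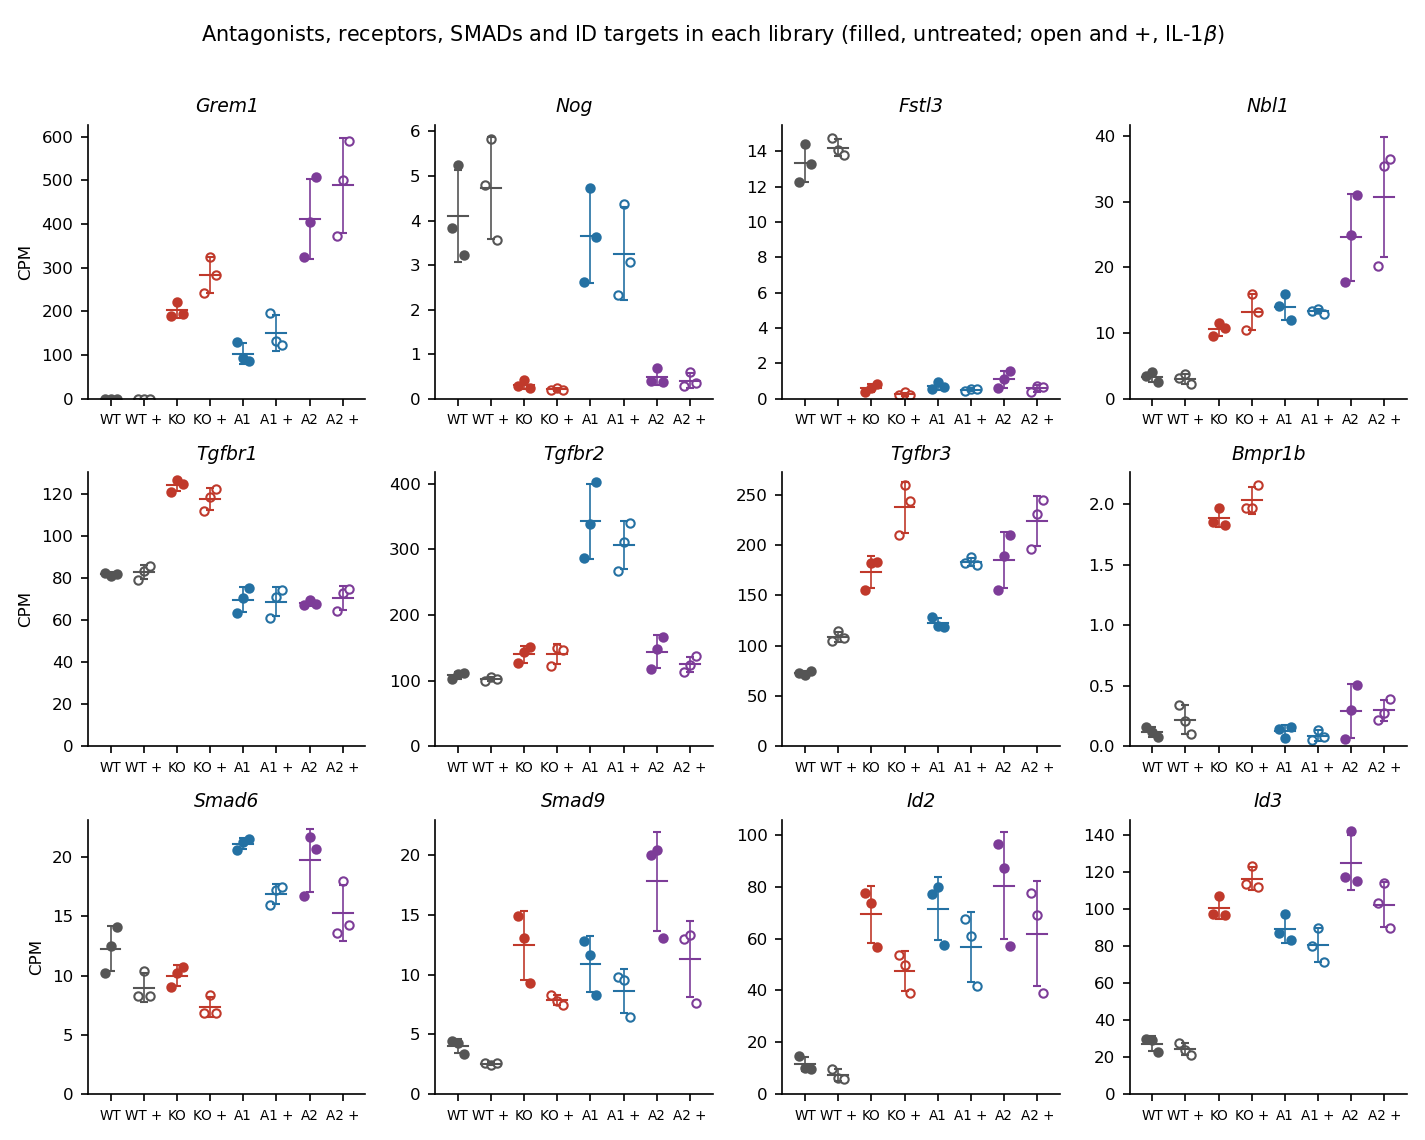
CPM (y axes, linear from 0) of 12 antagonist, receptor, SMAD and *Id* genes in the 24 libraries by group (x axis, + marks IL-1β), with lines for group means and bars for SD (n = 3). *Grem1* is near 0 in all WT libraries and *Fstl3* is above 12 CPM only there, while *Nog* is high in WT and clone A1.

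Other pathway genes, taken from lists chosen with earlier results of these data known, moved with mixed signs between untreated KO and WT, where 30.1% of all tested genes were higher and 25.8% lower. Of 18 tested genes that TGF-β is known to induce, 8 were higher and 7 lower, with a median log2 fold change of 0.13. The lower ones included *Ccn2* (-5.17 ± 0.26), a matricellular growth factor, *Acta2* (-5.11 ± 0.32), smooth muscle actin, and *Col1a2* (-3.63 ± 0.30), a collagen chain, while the matrix protein gene *Tgfbi* was higher by 4.67 ± 0.32. Of 7 tested BMP-induced genes, 5 were higher, among them *Hey1* (4.95 ± 0.30), and 2 were lower, among them *Msx2* (-2.95 ± 0.30), both encoding transcription factors. Of 14 further extracellular regulators tested, 11 were higher and 2 lower. The higher ones included the TGF-β-binding proteoglycan *Dcn* (9.04 ± 0.46) and the BMP antagonist *Chrdl1*, which had no count in the untreated WT libraries and was at least 39.1-fold higher in KO against the floor of 3 counts per library. Of 16 intracellular regulators, 7 were lower, led by the ubiquitin ligases *Nedd4l* (-1.21 ± 0.07) and *Smurf2* (-1.04 ± 0.10), and the other 9 were not called. Of 8 further receptors and co-receptors tested, 4 were higher and 2 lower. Only 3 of 17 further superfamily ligands could be tested, of which 1 was higher.

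The clones address what changes when CRTC2 is targeted on top of the LKB1 knockout. In untreated A1, 12 members were higher than in KO and 9 lower, against 18.9% and 16.4% of all tested genes. In untreated A2, 13 were higher and 6 lower, against 17.1% and 15.1%. With the replicate number as a block, which pairs the libraries of A2 and KO, the A2 counts were 19 and 13, against 24.5% and 21.4% of all genes in that fit. With IL-1β, A1 had 13 higher and 10 lower (19.4% and 17.3% of all genes) and A2 had 12 higher and 8 lower (17.1% and 15.8%). With the block the IL-1β counts were 18 and 15 in A1, against 25.8% and 23.3% of all genes, and 19 and 14 in A2, against 24.4% and 22.1%. Without library 1 of every group, A1 had 13 higher and 8 lower untreated (21.3% and 18.9% of all genes) and 15 and 14 with IL-1β (21.5% and 20.2%). In that fit A2 had 13 higher and 7 lower untreated (21.7% and 17.5%) and 14 and 12 with IL-1β (20.3% and 18.4%). Calls lost in that fit were *Acvr2b* (-0.57) and *Id1* (-0.43) in untreated A1, *Ltbp2* (-0.70), *Id3* (0.34) and *Id4* (1.00) in untreated A2, and *Eng* (0.41) and *Id1* (0.43) in A2 with IL-1β. In fits of 2 groups alone, calls were lost for *Acvr2b* in untreated A1, *Smad7* and *Fstl3* in untreated A2, *Inha* and *Ltbp4* in A1 with IL-1β, and *Bmp6*, *Acvr2a*, *Eng*, *Fstl3*, *Ltbp1* and *Id1* in A2 with IL-1β. Upper quartile scaling lost those for *Id1* in untreated A1, *Smad7* and *Id3* in untreated A2, *Ltbp4* in A1 with IL-1β, and *Ltbp1* and *Id1* in A2 with IL-1β. Both clones are compared with the same KO libraries, so values for them are set side by side below. The median log2 fold change of the members was 0.09 in A1 and 0.20 in A2 untreated, where the medians of all genes were 0.02 in both.

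**Figure D4:**
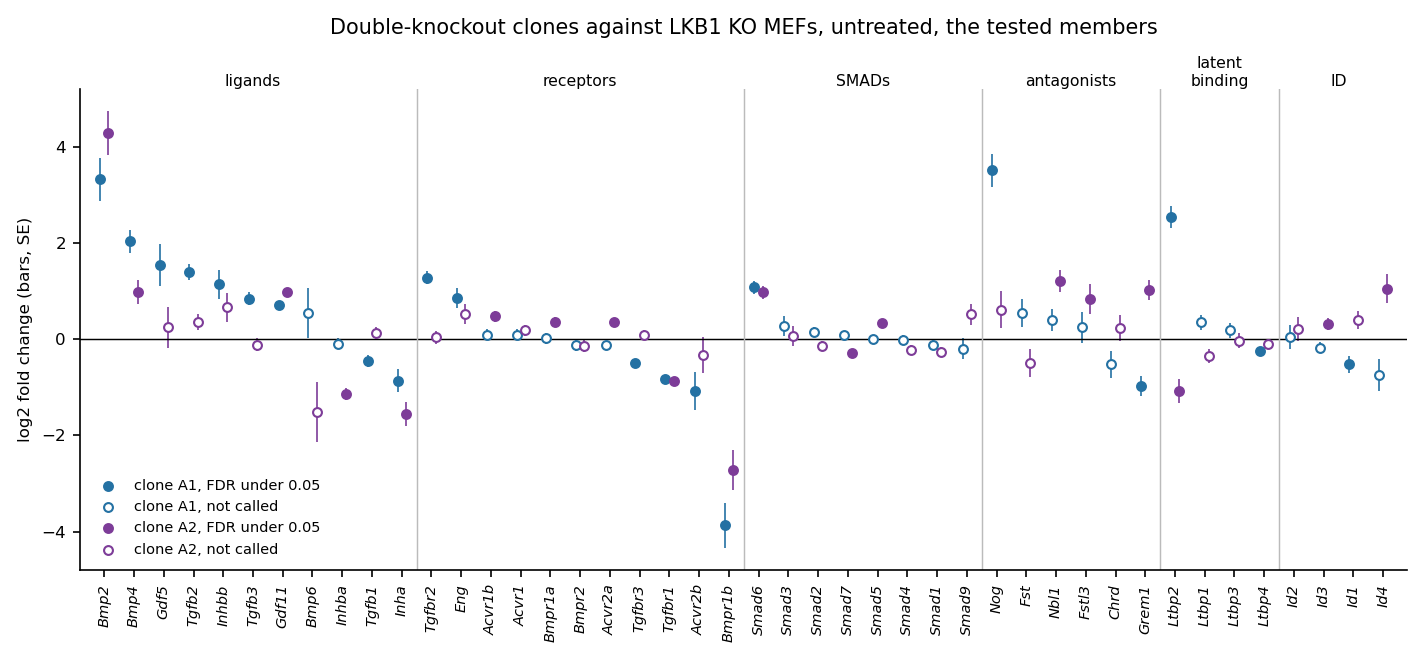
Log2 fold change over KO (y axis, bars show SE) in untreated clone A1 (blue) and clone A2 (purple) for the 44 tested genes grouped by role, filled where the FDR was under 0.05. *Nog* (3.52) and *Bmp2* (3.33) are highest in A1, *Bmp2* (4.30) is highest in A2, *Bmpr1b* is lowest in each, and *Grem1* and *Ltbp2* have opposite signs in the clones.

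*Bmp2* (chr2:133552159-133562885), a BMP of bone and cartilage formation, was far more abundant in the clones. It had 1.45, 4.41 and 4.76 CPM in untreated KO, 25.3, 38.2 and 43.1 in A1 and 36.4, 86.1 and 85.7 in A2. Library 1 was the lowest of its group in all of these, and no clone library overlapped KO. The log2 fold change over KO was 3.33 ± 0.45 in A1 (edgeR FDR = 6.87e-06) and 4.30 ± 0.46 in A2 (edgeR FDR = 5.5e-07). With IL-1β the values were 3.28 ± 0.49 and 3.80 ± 0.49. Per kilobase of exon, untreated A2 had *Tgfb1* at 21.9 ± 3.38 CPM, *Gdf11* at 21.6 ± 2.79 and *Bmp2* at 19.5 ± 8.05, which do not differ beyond their spread, and A1 had *Bmp2* at 9.996 ± 2.59.

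*Bmp4* and *Gdf11* were higher in untreated A1 and in untreated A2. *Bmp4* had 4.05 to 5.24 CPM in KO, 17.2 to 20.8 in A1 (log2 fold change 2.04 ± 0.24) and 5.60 to 12.0 in A2 (0.99 ± 0.24). With IL-1β it differed in A1 by 1.53 ± 0.24 and in A2 by 0.23 ± 0.24, the latter not called. *Gdf11*, with a CRE core in the stretch printed above, had 41.7 to 47.3 CPM in KO, 67.2 to 76.8 in A1 (0.70 ± 0.10) and 74.8 to 94.5 in A2 (0.97 ± 0.10), and no clone library overlapped KO. *Inhbb* was at 13.3 to 18.4 CPM in A1 (1.15 ± 0.30) and at 8.20 to 13.8 in A2 (0.67 ± 0.30, not called, but called with the replicate block, FDR = 0.00158). With IL-1β the *Inhbb* values were 1.70 ± 0.31 and 1.47 ± 0.31, and both passed.

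The TGF-β isoforms and *Gdf5* were called in A1 against KO. *Tgfb2* and *Tgfb3* were higher in untreated A1 by 1.41 ± 0.16 and 0.85 ± 0.14, and in A2 they were at 0.35 ± 0.17, called with the block (FDR = 0.0284), and -0.11 ± 0.14. *Tgfb1* was lower in A1 (-0.45 ± 0.12) and at 0.13 ± 0.12 in A2. *Gdf5* had 15.1, 23.1 and 26.3 CPM in untreated A1, all above the KO libraries (1.55 ± 0.43, edgeR FDR = 0.00852), and 3.18, 8.15 and 14.9 in A2, overlapping KO (0.25 ± 0.43). *Bmp6* was at -1.50 ± 0.62 in untreated A2, called with the block (FDR = 0.0279), on 30 counts over the KO libraries and 11 over those of A2.

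*Inhba*, which was so much higher in KO than in WT, differed between the clones. Untreated A1 had 90.4, 90.9 and 87.0 CPM, overlapping KO, and untreated A2 had 48.8, 44.0 and 37.5, below every KO library. The log2 fold change over KO was -0.09 ± 0.12 in A1 and -1.13 ± 0.12 in A2 (edgeR FDR = 3.56e-07). With IL-1β it was -0.38 ± 0.12 in A1 and -1.96 ± 0.12 in A2. The A1 call with IL-1β was lost without treated KO library 1 (-0.31) or 3 (-0.36). *Inha* was lower in both clones untreated, at 0.720 to 0.854 CPM in A1 (-0.86 ± 0.24) and 0.463 to 0.550 in A2 (-1.56 ± 0.25), where KO had 1.36 to 1.54. With IL-1β the *Inha* values were -0.78 ± 0.24 and -1.14 ± 0.24, and the A1 call was lost without A1 library 2 (-0.59) or KO library 1 (-0.66).

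Among receptors, *Tgfbr1* and *Tgfbr2* are given per library by a choice made after their values were seen. *Tgfbr1* had 121, 127 and 125 CPM in untreated KO, 63.6, 70.4 and 75.3 in A1 and 67.1, 69.7 and 67.7 in A2. The log2 fold change over KO was -0.83 ± 0.07 in A1 and -0.86 ± 0.07 in A2 untreated, and -0.77 ± 0.07 and -0.73 ± 0.07 with IL-1β, and all clone libraries lay below all KO and WT libraries. *Bmpr1b* fell from at least 1.83 CPM in every KO library to at most 0.161 in untreated A1 and 0.506 in untreated A2 (-3.87 ± 0.47 and -2.71 ± 0.42), on 16 and 39 counts in all. *Tgfbr2* had 287, 338 and 402 CPM in untreated A1, above every KO library (1.29 ± 0.13, edgeR FDR = 1.33e-07), and 118, 148 and 167 in A2 (0.04 ± 0.13). *Tgfbr3* was lower in A1 (-0.50 ± 0.10) and at 0.10 ± 0.10 in A2. *Acvr2b* was lower in A1 by 1.07 on the log2 scale (SE 0.40) and was at -0.32 ± 0.38 in A2. The A1 call was lost without A1 library 1 (-0.68), KO library 1 (-0.94) or KO library 3 (-0.99), or with both strands counted (-0.99). *Acvr2a*, *Acvr1b* and *Bmpr1a* were higher in A2 by 0.36 ± 0.07, 0.48 ± 0.11 and 0.36 ± 0.11. *Eng* had 1.43 to 2.02 CPM in untreated KO, 2.74 to 3.54 in A1 (0.85 ± 0.21) and 2.36 to 3.02 in A2 (0.53 ± 0.21, not called, but called with the block, FDR = 0.0227).

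*Smad6*, the BMP-branch inhibitory SMAD and a known BMP target, was the SMAD with the widest difference in each clone. It had 9.01, 10.2 and 10.7 CPM in untreated KO, 20.6, 21.3 and 21.5 in A1 and 16.7, 21.7 and 20.7 in A2, so every clone library was above every KO library. Over KO, *Smad6* had log2 fold changes of 1.08 ± 0.13 in A1 (edgeR FDR = 2.13e-06) and 0.98 ± 0.13 in A2 (edgeR FDR = 9.32e-06), and 1.20 ± 0.14 and 1.05 ± 0.13 with IL-1β. *Smad5* was higher in A2 (0.33 ± 0.07) and *Smad7* lower (-0.28 ± 0.08), the *Smad7* call being lost without A2 library 2 (-0.27), A2 library 3 (-0.19) or KO library 1 (-0.20). *Smad9* ran from 13.1 to 20.4 CPM in A2 and from 9.33 to 14.9 in KO (0.52 ± 0.22, not called, but called with the block, FDR = 0.000458). *Smad1*, *Smad2*, *Smad3* and *Smad4* were not called in either untreated clone, with values between -0.25 and 0.27. With the block, *Smad1* (-0.26), *Smad2* (-0.14) and *Smad4* (-0.23) were called lower in A2.

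The antagonists *Grem1* and *Nog* separated the clones. *Grem1* fell to 131, 92.9 and 85.3 CPM in untreated A1 and rose to 324, 405 and 508 in A2, with the 3 KO libraries at 189 to 223 lying between them. The log2 fold change over KO was -0.97 ± 0.20 in A1 (edgeR FDR = 0.000708) and 1.03 ± 0.20 in A2 (edgeR FDR = 0.000493), and A2 over A1 was 2.0 ± 0.21. *Nog* had 2.61, 4.73 and 3.63 CPM in untreated A1, overlapping WT, and 0.403, 0.695 and 0.374 in A2, close to KO. For *Nog* the log2 fold change over KO was 3.52 ± 0.35 in A1 (edgeR FDR = 1.36e-07) and 0.62 ± 0.39 in A2. *Nbl1* was higher in A2 (1.21 ± 0.23) and at 0.40 ± 0.23 in A1. *Fstl3* stayed under 2 CPM in both clones. Its A2 value of 0.83 ± 0.31 was called but overlapped KO, fell to 0.39 when both strands were counted, and lost its call without A2 library 2 (0.83) or 3 (0.52) or KO library 1 (0.61) or 2 (0.85).

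*Ltbp2* also had opposite signs, at 8.0, 6.79 and 4.57 CPM in untreated A1 and 0.403, 0.509 and 0.660 in A2 against 1.40, 1.04 and 0.857 in KO. The log2 fold changes were 2.54 ± 0.22 and -1.07 ± 0.25, and A2 over A1 was -3.62 ± 0.24 (edgeR FDR = 6.56e-10). *Ltbp1* with IL-1β was at 0.47 ± 0.15 in A1 and -0.43 ± 0.15 in A2, calls lost without A1 library 2 (0.43) or KO library 3 (0.46) in A1, and in A2 without A2 library 2 (-0.40) or 3 (-0.27) or without KO library 1 (-0.43), 2 (-0.42) or 3 (-0.43). *Ltbp4* was at -0.24 ± 0.08 in untreated A1, a call lost without A1 library 2 (-0.23) or 3 (-0.23) or KO library 2 (-0.21), and *Ltbp3* was called in neither clone. *Id2* had 57.6 to 79.9 CPM in untreated A1 and 57.1 to 96.7 in A2, overlapping KO (0.04 ± 0.25 and 0.21 ± 0.25). *Id3* was at -0.17 ± 0.12 in A1 and 0.32 ± 0.12 in A2, the latter lost without A2 library 2 (0.24) or without KO library 1 (0.32), 2 (0.36) or 3 (0.30). *Id1* was at -0.52 ± 0.18 in untreated A1, a call lost without A1 library 1 (-0.51) or 3 (-0.44) or KO library 1 (-0.41) or 2 (-0.48), and at 0.40 ± 0.18 in A2, called with the block (FDR = 0.00361). *Id4* had 1.45 to 2.64 CPM in A2 (1.05 ± 0.31, lost without KO library 3 at 0.92) and 0.60 to 0.658 in A1 (-0.75 ± 0.33, not called).

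The clones were compared directly untreated. A2 was higher than A1 for 14 members and lower for 14, against 15.8% and 16.7% of all tested genes. Without library 1 of every group the counts were 17 and 14 (21.2% and 19.5% of all genes), and the calls for *Inha* (-0.61) and *Chrd* (0.55) were lost. Both were also lost in a fit of the 2 groups alone, as were *Gdf5*, *Gdf11* and *Fst*. Among the lower were *Tgfbr2* (-1.25 ± 0.13), *Tgfb2* (-1.05 ± 0.16), *Tgfb3* (-0.96 ± 0.14), *Bmp4* (-1.05 ± 0.23), *Inhba* (-1.04 ± 0.12) and *Nog* (-2.90 ± 0.33). No A2 library overlapped an A1 library for these genes, which were picked from the called ones, and overlap was not counted over all genes. *Tgfb1* was higher in A2 than in A1 (0.57 ± 0.12), as were *Tgfbr3* (0.60 ± 0.10), *Id1* (0.92 ± 0.18) and *Id4* (1.80 ± 0.32). *Tgfbr1* (-0.03 ± 0.07), *Smad6* (-0.10 ± 0.13) and *Id2* (0.17 ± 0.25) did not differ detectably. *Gdf5* was lower by 1.30 on the log2 scale (SE 0.43), a call lost without A1 library 2 (-1.24) or 3 (-1.13) or A2 library 1 (-0.90) or 2 (-1.25). The TGF-β-induced genes were compared too, with 9 of 18 tested lower in A2 than in A1, led by the contractile genes *Tagln* (-4.94) and *Acta2* (-3.53), and 2 higher.

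Against KO, 9 of the 18 TGF-β-induced genes were higher and 2 lower in untreated A1, and 1 was higher and 3 lower in untreated A2. Over all tested genes, 18.9% were higher and 16.4% lower in A1, and 17.1% were higher and 15.1% lower in A2, and the counts of the lists below are set against the same shares. *Ccn2* was at 2.24 ± 0.23 in A1 and 0.26 ± 0.24 in A2, and *Tagln* at 2.07 ± 0.40 in A1 and -2.88 ± 0.51 in A2. *Dcn* was lower in both (-2.93 ± 0.30 and -3.28 ± 0.31), *Msx2* higher in both (2.13 ± 0.30 and 2.16 ± 0.30), and *Chrdl1* went from 2.16 ± 0.25 in A1 to -1.89 ± 0.28 in A2. Of 14 extracellular regulators, 6 were higher and 3 lower in A1 and 1 higher and 5 lower in A2. Of 7 BMP-induced genes, 1 was higher and 4 lower in A1, and 2 were higher and 2 lower in A2. Of 16 intracellular regulators, 2 were higher and 2 lower in A1, and 2 higher and 4 lower in A2. Among 8 further receptors and co-receptors, 1 was higher and 4 lower in A1, and 1 higher and 2 lower in A2, with the signal peptide and EGF-domain protein gene *Scube3* the highest (1.99 ± 0.33 and 3.78 ± 0.35).

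The treatment comparison asks which members change with IL-1β within a genotype. Without a replicate block, 1 member was higher in WT, against 1.53% of all tested genes higher and 0.731% lower. In KO, 3 were higher and 1 lower (2.65% and 2.09% of all genes), in A1 2 were higher (1.2% and 0.788% of all genes) and in A2 2 were higher and 5 lower (2.81% and 2.86% of all genes). With the replicate number as a block, which pairs the libraries in all 4 genotypes, the counts were 1 higher and 7 lower in WT, 6 and 12 in KO, 2 and 8 in A1, and 3 and 17 in A2. In the same fit the shares of all genes higher and lower were 4.7% and 4.59% in WT, 5.77% and 9.07% in KO, 3.68% and 5.94% in A1, and 7.27% and 10.6% in A2. Without library 1 of every group the counts were 1 and 5 in WT (2.77% and 2.5% of all genes), 6 and 6 in KO (4.21% and 4.58%), 3 and 5 in A1 (2.15% and 3%), and 3 and 11 in A2 (6.06% and 8.59%). In fits that held the 2 groups of one genotype alone, the calls for *Ltbp2* in A1 and for *Fst*, *Tgfb3*, *Inhba*, *Bmp2*, *Acvr2a* and *Ltbp1* in A2 were lost, at edgeR FDR values from 0.121 to 0.446.

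**Figure D5:**
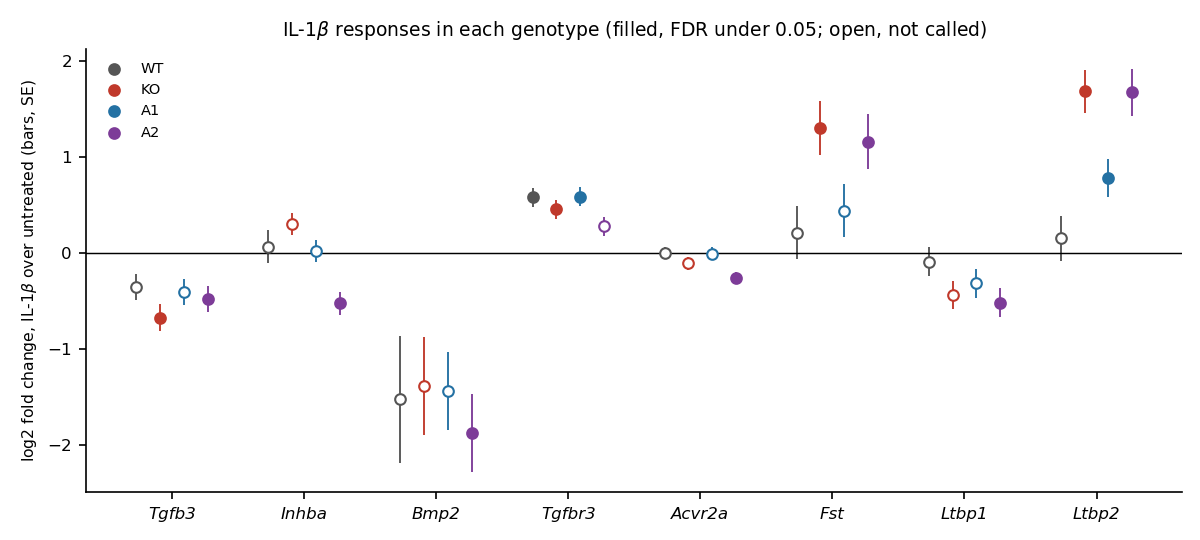
Log2 fold change of IL-1β over untreated (y axis, bars show SE) in WT, KO, A1 and A2 for the 8 members called in at least 1 genotype, filled where the FDR was under 0.05. *Bmp2* lies between -1.88 and -1.39 with wide error, and *Ltbp2* is at 1.68 in KO and A2 and 0.15 in WT.

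*Tgfbr3* rose in WT from 70.6 to 74.4 CPM untreated to 104 to 114 with IL-1β (log2 fold change 0.58 ± 0.10, edgeR FDR = 0.00146). It also rose in KO (0.46 ± 0.10) and in A1 (0.58 ± 0.10), in each without overlap, and in A2 it was at 0.28 ± 0.10, called with the block (FDR = 0.0109). The KO call was lost without IL-1β-treated KO library 2 (0.39). *Fst* rose in KO from 10.6, 7.77 and 6.64 CPM to 22.5, 18.6 and 20.7 (1.30 ± 0.28, edgeR FDR = 0.00654) and in A2 from 9.07, 5.90 and 2.82 to 16.5, 12.7 and 10.6 (1.16 ± 0.29, edgeR FDR = 0.0164). The KO call was lost without untreated library 3 (1.16), and the A2 call without treated library 1 (0.97) or untreated library 2 (1.15) or 3 (0.82). In WT and A1, *Fst* was at 0.21 ± 0.28 and 0.44 ± 0.28.

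*Ltbp2* rose in KO from 1.40, 1.04 and 0.857 CPM to 4.08, 3.22 and 3.36 (1.68 ± 0.22, edgeR FDR = 3.61e-05), in A2 from at most 0.660 to at least 1.51 (1.68 ± 0.24) and in A1 by 0.78 ± 0.20. The A1 call was lost without treated library 1 (0.67) or 2 (0.75) or untreated library 2 (0.82) or 3 (0.58). In WT, *Ltbp2* had 0.915 to 1.30 CPM untreated and 1.21 to 1.28 with IL-1β. The difference between the KO and WT responses was 1.53 ± 0.32 (edgeR FDR = 0.0465), the 1 member called for that difference against 0.245% of all tested genes. That call was lost when any of 10 of the 12 libraries was left out (1.40 to 1.61), with both strands counted (1.38, FDR = 0.0862) and in a fit of the 4 groups alone (1.58, FDR = 0.05316).

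*Bmp2* fell with IL-1β in A2, from 36.4, 86.1 and 85.7 CPM to 7.79, 25.0 and 23.8 (-1.88 ± 0.41, edgeR FDR = 0.00602). The call was lost in a fit of the 2 A2 groups alone (-1.85, edgeR FDR = 0.1245). The treated A2 libraries were all below the untreated ones. In WT, KO and A1 the log2 values were -1.53 ± 0.66, -1.39 ± 0.51 and -1.44 ± 0.41 and were not called, but were called with the block, at FDR values of 0.00241, 0.000102 and 3.2e-07, with no filter on low counts and without library 1 of every group. *Tgfb3* fell in KO from 25.1, 29.0 and 31.7 CPM to 16, 18.4 and 19.2 (-0.68 ± 0.14, edgeR FDR = 0.0044). In A2 *Tgfb3* was at -0.48 ± 0.14, a call lost without any treated library or without untreated library 2 or 3 (-0.47 to -0.39). That call was also lost with DESeq2 size factors (edgeR FDR = 0.0508) or with both strands counted (edgeR FDR = 0.101). In WT and A1 *Tgfb3* was at -0.36 ± 0.14 and -0.41 ± 0.14, called with the block. *Inhba* fell in A2 from 37.5 to 48.8 CPM untreated to 27.3 to 34.9 (-0.53 ± 0.12, edgeR FDR = 0.00863), a call lost without treated library 2 (-0.45) or 3 (-0.45). In KO, *Inhba* was at 0.30, not called, but was called higher with the block (0.31, FDR = 0.00949). *Acvr2a* and *Ltbp1* were lower in A2 by 0.26 ± 0.07 and 0.52 ± 0.15 on the log2 scale. The *Acvr2a* call was lost without treated library 1 (-0.17) or untreated library 3 (-0.22) or with no filter on low counts (-0.25, edgeR FDR = 0.103). The *Ltbp1* call was lost without treated library 2 (-0.51) or 3 (-0.33) or untreated library 1 (-0.34) or 2 (-0.52). It was also lost with DESeq2 size factors (edgeR FDR = 0.053), upper quartile scaling (0.0657) or at least 10 counts required in every library (0.0753). In KO, *Ltbp1* was called lower with the block (-0.44, FDR = 0.0213).

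With the block, *Id2* was also lower after IL-1β in all 4 genotypes, from -0.66 in WT to -0.35 in A1, as was *Smad6*, from -0.45 in WT to -0.33 in A1, and *Bmpr1a*, from -0.32 in A2 to -0.20 in WT and A1. *Inhbb* was called lower with the block in WT (-1.18) and KO (-0.84) and was at -0.27 in A1 and -0.02 in A2. *Smad9* was called lower with the block in WT (-0.65), KO (-0.64) and A2 (-0.66).

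For differences between responses, no member was called for A1 minus KO, against 0.0285% of all genes, or for A2 minus KO, against 0%. The edgeR test had 4 members at an unadjusted p under 0.05 in each comparison, and DESeq2 called 0 for A1 and 1 for A2. With the replicate block, which pairs the A2 and KO libraries, *Inhba* (-0.83, FDR = 0.000999) and *Id3* (-0.50, FDR = 0.032) had lower responses in A2 than in KO, and 0.103% of all genes were called in that fit. Among the other pathway genes, the TGF-β-anchoring protein gene *Lrrc32* rose with IL-1β in WT (3.10 ± 0.42), KO (2.05 ± 0.22), A1 (1.58 ± 0.21) and A2 (2.07 ± 0.24). *Lrrc32* had a mean log2 CPM of only 1.33, and untreated WT lay 4.73 ± 0.37 below untreated KO on the log2 scale. The size of its WT rise therefore rests on a low untreated level. *Dcn* rose in KO (1.33), A1 (1.79) and A2 (2.37). The TGF-β activator gene *Thbs1* fell in WT (-1.37), A1 (-1.14) and A2 (-1.35). Of the TGF-β-induced genes, *Klf10*, which encodes a transcription factor, fell in KO (-0.36) and A2 (-0.34), and in A2 *Acta2* rose (1.25) and *Ccn2* fell (-0.88).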

How the data were processed

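The authors trimmed read pairs with Trim Galore 0.6.0, aligned them with STAR 2.7.8a to the mouse genome (GRCm38) with GENCODE annotation, and deposited raw counts per gene for each library without normalisation. The library kit is given differently in the labels and in the study's methods and was not resolved. Of the deposited strand columns, the one holding 95.5% to 95.95% of stranded counts was used. Gene symbols were matched by identifier to a GENCODE M21 (GRCm38) annotation, and the 4 categories of pairs not on genes (26.7% to 34.4% of pairs) were left out. Genes with low counts were removed with edgeR 4.0.16 (filterByExpr, minimum count 10, minimum total 15), libraries were TMM-scaled (factors 0.922 to 1.09), and all 24 libraries entered one quasi-likelihood fit by group with Benjamini-Hochberg adjustment over 17522 genes. SE is the absolute log2 fold change divided by the square root of F. Scripts were tested on simulated data. The smallest two-sided exact permutation p for 3 against 3 libraries is 0.1, so single values were not tested that way. Alternatives were no filter, a stricter filter, other scalings, DESeq2 1.42.0, unstranded counts, fits limited to the groups at hand, a replicate block and leaving out each library, and, added after seeing the data, leaving out library 1 of every group. Same-numbered libraries were taken as paired where every correlation of their deviations from group means exceeded 0.1; over all pairs of groups these ran from 0.0355 to 0.589, and KO against WT untreated, A1 against KO untreated, A2 against A1, and the responses of KO against WT and A1 against KO were not paired. Members and gene lists were chosen with earlier results of these data known. Per-library values, or for some members only the range over libraries, are given for members with a mean log2 CPM above 0 that were called with an absolute log2 fold change above 1 in KO against WT in both treatments, called in the same direction in both clones with one above 1, or called for IL-1β or a difference of responses. From each pathway list up to 4 called genes were eligible for naming, by size of change.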

Additional observations from a re-analysis of the deposited data

Results flagged for a closer look

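The IL-1β response of *Ltbp2*, a matrix protein related to the latent TGF-β binding proteins, differed between KO and WT MEFs in a test of the difference itself. The log2 response was 1.68 ± 0.22 in KO and 0.15 ± 0.23 in WT, and their difference was 1.53 ± 0.32 (edgeR quasi-likelihood test, FDR = 0.0465). The 3 KO libraries rose from between 0.857 and 1.40 CPM to between 3.22 and 4.08 CPM, and the WT libraries lay between 0.915 and 1.30 CPM in both treatments. The call was lost without treated KO library 1 (1.42), 2 (1.60) or 3 (1.61), untreated KO library 2 (1.49) or 3 (1.40), treated WT library 1 (1.51), 2 (1.56) or 3 (1.56), and untreated WT library 2 (1.51) or 3 (1.44).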

How the results depend on the processing

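Across the called members, 1486 of 1540 values under other settings and 1053 of 1188 values with a library left out stayed on the same side of the threshold, and none changed sign. With the replicate block, calls numbered 32 for A2 against KO untreated and 33 with IL-1β, 8 for IL-1β in WT, 18 in KO, 10 in A1 and 20 in A2, and 3 and 2 for the responses of KO minus WT and A2 minus KO. With no filter on low counts, calls numbered 8 for IL-1β in WT, 15 in KO, 8 in A1 and 14 in A2, and 6, 2 and 2 for the responses of KO minus WT, A1 minus KO and A2 minus KO. IL-1β in WT had 2 calls with at least 10 counts required in every library, 2 with upper quartile scaling and 3 with DESeq2, and IL-1β in KO had 7 with upper quartile scaling. When each fit held only its own groups, IL-1β had 4 calls in A1 and 1 in A2, and the response of KO minus WT had 0, as it had with unstranded counts. DESeq2 called 1 member for the response of A2 minus KO. Without library 1 of every group, a fit added after seeing the data, IL-1β had 6 calls in WT, 12 in KO, 8 in A1 and 14 in A2, the response of A2 minus KO had 1, and 188 of 197 member calls kept their side of the threshold. The causes were not tested.

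With each library left out in turn, calls ranged from 34 to 35 for KO against WT untreated and 32 to 38 with IL-1β, from 19 to 20 for A1 against KO untreated and 20 to 25 with IL-1β, and from 17 to 23 for A2 against KO untreated and 16 to 20 with IL-1β. They ranged from 22 to 27 for A2 against A1, from 1 to 2 for IL-1β in WT, 3 to 6 in KO, 1 to 2 in A1 and 4 to 10 in A2, and from 0 to 1 for the response of KO minus WT, with 0 throughout for the other responses. In the unpaired comparisons the block gave 39 calls for KO against WT untreated, 30 for A1 against KO untreated, 33 for A2 against A1 and 0 for the response of A1 minus KO. Over all genes, KO against WT untreated turned from 5279 higher and 4519 lower to 4703 and 5117 with unstranded counts, and with IL-1β from 5299 and 4751 to 4830 and 5169, and upper quartile scaling gave 6063 and 3912 untreated and 6252 and 3978 with IL-1β. Upper quartile scaling shifted the median of all genes by 0.10 in KO against WT with IL-1β and moved the split of all genes for IL-1β in WT from 268 higher and 128 lower to 307 and 228. *Gdf5* and *Grem1* in WT and *Bmpr1b* in WT and A1 rest on few counts, and with 3 libraries a group, differences near the threshold hang on 1 library.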
